A study of Mus musculus with 16 samples.

Results

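The 5 genes Sema3e, Sema5b, Epha8, Sox11 and Igf1 encode axon guidance and growth proteins, and their transcripts were followed in the primary motor cortex of mice after stroke. They were chosen by name and function from the 661 genes of the deposited tables, which list 263 genes for ipsilesional cortex (the side of the lesion) and 417 for contralesional cortex (the opposite side). All 5 stand in the contralesional table, and 2 of them, Sema3e and Epha8, also stand in the ipsilesional one. The animals were C57Bl6 mice, all of which had a stroke, so no uninjured brain entered any comparison. A balance test on a horizontal rotating beam was used to judge behaviour, and the labels separate 3 spontaneously recovered animals (6, 23 and 28) from 5 non-recovered ones (17, 19, 20, 21 and 29). Both hemispheres of each animal were sequenced, 1 library each, 16 in all. Age, sex, the way the stroke was made and the time between stroke and sampling were not given in the sources used here.

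Values are log2 CPM, the base-2 logarithm of counts per 1000000 reads, and each table was normalised by itself, so levels were not compared between hemispheres. A log2 fold change is the mean of the recovered minus the mean of the non-recovered libraries, with its standard error (SE) from limma, a linear model fitted to all genes of a table. Adjusted p-values are Benjamini-Hochberg values over all genes of that table, and a gene is said to have risen or fallen only where this value is under 0.05. The authors had selected the listed genes on these same libraries, so a difference between the groups is not independent evidence for any of them. The smallest absolute log2 fold change in the tables was 0.13 ipsilesional and 0.12 contralesional. Library totals recovered from the values ranged from 19116419 to 26310885 reads ipsilesional and from 17972791 to 27895465 contralesional. Contralesionally the labels conflict over animals 6 and 23, both recovered: their titles and description codes are swapped relative to the ipsilesional libraries, and animals are named here by title. Group means are not touched by this. A pair of libraries stood apart, and values without them are given with the results. The ipsilesional one of animal 6 did so in Itgam, Gpnmb and C3, markers of microglia and macrophages. The contralesional one of animal 23 did so in a trend with exonic length. Both are recovered libraries and carry the same description code, of a series of codes that no other library has, so by description they may come from 1 animal although their titles name 2.

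Growing axons are steered by ligands that attract or repel their tips and by receptors on the growth cone. Semaphorins are a family of such ligands, some secreted and some held in the membrane, which signal mainly through plexins. Eph receptors are tyrosine kinases that bind ephrins on neighbouring cells and usually turn axons away. Sox11 is a transcription factor of the SoxC group that is active in immature neurons, and Igf1 is a secreted growth factor that acts through the receptor Igf1r. In bulk tissue, a change in the number of cells of a type and a change in the RNA per cell cannot be told apart.

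The promoters of 3 members are shown because Sema3e and Epha8 differed in opposite directions in both hemispheres and Sema5b was the member that passed the adjusted threshold. They are the 250 bases before the RefSeq start of each gene (build GRCm38.p6), read 5′ to 3′ on the gene's strand. RefSeq and GENCODE place some starts differently, so the windows of Sema5b (most of it) and Igf1 (all of it) lie inside the gene bounds that GENCODE gives and that are printed with each gene. Capitals mark the GC box GGGCGG or its reverse complement CCGCCC. Sema3e is on the plus strand at chr5:14025026-14025275, Sema5b on the plus strand at chr16:35541112-35541361 and Epha8 on the minus strand at chr4:136956817-136957066.
Sema3e: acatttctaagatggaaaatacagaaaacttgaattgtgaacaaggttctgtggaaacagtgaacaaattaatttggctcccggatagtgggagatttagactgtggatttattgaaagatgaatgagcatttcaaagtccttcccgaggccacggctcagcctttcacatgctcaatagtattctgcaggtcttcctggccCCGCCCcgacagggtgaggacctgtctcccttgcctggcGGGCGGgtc
Sema5b: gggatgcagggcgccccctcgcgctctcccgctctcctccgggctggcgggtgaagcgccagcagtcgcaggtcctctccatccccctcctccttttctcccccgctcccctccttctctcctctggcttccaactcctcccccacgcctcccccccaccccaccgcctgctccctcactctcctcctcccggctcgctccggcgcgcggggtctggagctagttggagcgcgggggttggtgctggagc
Epha8: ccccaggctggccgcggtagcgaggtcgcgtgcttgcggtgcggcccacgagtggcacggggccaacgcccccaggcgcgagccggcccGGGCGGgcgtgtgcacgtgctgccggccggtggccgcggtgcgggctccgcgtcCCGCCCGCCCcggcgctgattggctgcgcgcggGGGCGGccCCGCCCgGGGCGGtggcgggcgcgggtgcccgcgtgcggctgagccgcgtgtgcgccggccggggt
The promoter of Epha8 held 6 GC boxes and 46 CpG dinucleotides at 84.0% GC. That of Sema5b held no GC box and 19 CpG at 72.0% GC, and that of Sema3e held 2 GC boxes and 7 CpG at 48.0% GC. Sox11 had 2 GC boxes at 58.0% GC and Igf1 no GC box at 52.8% GC, and the median over all 32851 promoters of this length was 52.4% GC. Searched on both strands, the GC box occurred in 32.7% of these promoters, CCAAT in 33.8%, TATAAA in 12.4%, CACGTG in 6.02% and AACAAT, a motif that Sox proteins bind, in 9.42%. None of the 5 promoters held TATAAA or AACAAT in this window. CCAAT occurred once each in Epha8, Sox11 and Igf1, and CACGTG once, in Epha8.

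In contralesional cortex Sema5b and Sema3e were higher in recovered animals, and Epha8, Sox11 and Igf1 were lower. Only the difference of Sema5b passed an adjusted p of 0.05, as did 7.91% of the table's genes in either direction and 1.92% as higher ones. At an unadjusted p under 0.05 limma called 3 of the 5 members, against 73.4% of the table. The groups did not overlap for Sema5b (17.7% of the table with all recovered libraries higher) and for Sox11 (25.4% with all recovered libraries lower). In either direction, 43.2% of the table did not overlap. The members' absolute log2 fold changes ran from 0.24 (Igf1) to 0.44 (Sema5b), and the median over the whole table was 0.26 in each hemisphere. Without animal 23 the contralesional differences were 0.21 for Sema3e, 0.45 for Sema5b, -0.48 for Epha8, -0.29 for Sox11 and -0.21 for Igf1, of which Sema5b passed (adjusted p = 0.0458). In ipsilesional cortex neither Sema3e nor Epha8 passed the adjusted p, which 1.14% of the table did, and both passed the unadjusted one, as did 74.5% of the table. Their groups overlapped there, while 42.2% of listed genes did not overlap.

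**Figure D1:**
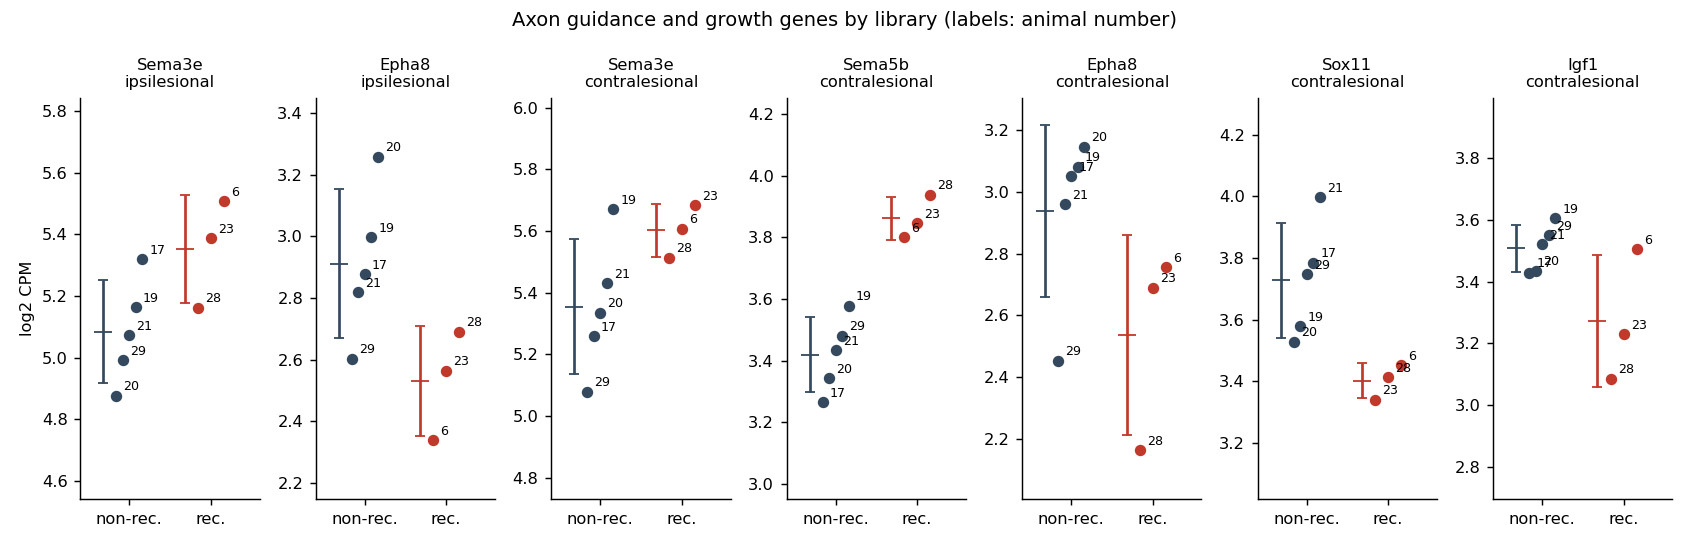
Each panel plots log2 CPM of 1 gene in 1 hemisphere for every library, labelled by animal number, with the group mean and SD as a cross and bar beside the points (n = 5 non-recovered, n = 3 recovered). All panels span the same height on the log2 axis. The recovered libraries of Sema5b (3.80 to 3.94) lie above all non-recovered ones, those of Sox11 (3.34 to 3.45) below all of them, and the other panels overlap.

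Sema5b encodes a transmembrane semaphorin with thrombospondin repeats (mm10 chromosome 16, 35541145 to 35664732, plus strand). Its contralesional log2 CPM was 3.80, 3.85 and 3.94 in recovered animals 6, 23 and 28. In non-recovered animals 17, 20, 21, 29 and 19 it was 3.27, 3.34, 3.43, 3.48 and 3.58. Every recovered library was above every non-recovered one. Sema5b rose 1.36-fold, from a mean of 3.42 ± 0.12 (SD, n = 5) to one of 3.86 ± 0.07 (SD, n = 3). The log2 fold change was 0.44 ± 0.08 (SE, limma adjusted p = 0.0469). The exact permutation test over all 56 assignments of 8 libraries to groups of 3 and 5 gave p = 0.0179 (2-sided), the smallest it can give. It had 220 to 366 reads per library, for which counting alone gives an SD of about 0.09 on the log2 scale, close to the spread seen within the groups. The adjusted p rose above 0.05 without animal 17 (0.0737), 20 (0.0740) or 28 (0.0604), with log2 fold changes of 0.40 to 0.42, and also with limma-voom (0.0520) and with a variance trend (0.0501). It also did so when adjusted over all 21951 protein-coding genes rather than the selected genes alone.

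Sema3e encodes a secreted class 3 semaphorin that can bind plexin D1 directly (chromosome 5, 14025276 to 14256689, plus strand). Its contralesional log2 CPM was 5.51, 5.61 and 5.68 in recovered animals 28, 6 and 23, and 5.08, 5.26, 5.34, 5.43 and 5.67 in non-recovered animals 29, 17, 20, 21 and 19. The non-recovered animal 19 lay among the recovered ones, and the other 4 lay below them. The log2 fold change was 0.25 ± 0.12 (SE; 95% interval -0.03 to 0.52, limma adjusted p = 0.0826, exact permutation p = 0.125). Next to the lesion, recovered animals 28, 23 and 6 had 5.16, 5.39 and 5.51, and non-recovered animals 20, 29, 21, 19 and 17 had 4.88, 4.99, 5.07, 5.16 and 5.32. Here animal 28 lay at the level of animal 19 and below animal 17. The difference was 0.27 ± 0.12 (limma adjusted p = 0.0665, exact permutation p = 0.107). Sema3e was the most deeply read member, with 667 to 1078 reads ipsilesional and 820 to 1314 contralesional, so its spread between non-recovered animals (SD 0.17 and 0.22) was several times the counting error (0.05 and 0.04).

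The ipsilesional library of animal 6 stood apart in the microglia and macrophage genes Itgam, Gpnmb and C3. Of 16 markers of these cells 4 were listed (Itgam, Gpnmb, C3 and Lyve1). Their summed level was 148 CPM there, against 9.05 to 22.02 CPM in non-recovered libraries and 9.33 CPM in the lowest recovered one. Nearly all of it was Gpnmb (90.6 CPM), C3 (34.7 CPM) and Itgam (22.1 CPM). Lyve1 went the other way, at 0.72 CPM there against 0.87 to 1.77 CPM in non-recovered libraries. The same library had the highest ipsilesional Sema3e and the lowest Epha8. Without it the ipsilesional log2 fold change was 0.19 for Sema3e (adjusted p = 0.201) and -0.28 for Epha8 (adjusted p = 0.161). None of the 16 markers was listed in the contralesional table, so the level of these cells was not analysed there. Of 12 markers of cortical excitatory neurons only Calb1 was listed, and only ipsilesionally, where it was lower in recovered animals (-0.23 ± 0.10, adjusted p = 0.0663). Of 10 interneuron markers Gad1 and Slc32a1 were listed ipsilesionally, both higher, with summed levels of 440 to 503 CPM in recovered and 376 to 445 CPM in non-recovered libraries. Of 12 striatal projection neuron markers Pde10a and Lrrc10b were listed there, both lower, at 41.0 to 55.6 CPM against 51.4 to 70.6 CPM. The part of these cell types in the ipsilesional Sema3e and Epha8 differences was not tested.

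Sema3d, a secreted class 3 relative of Sema3e, was lower in contralesional cortex of recovered animals. It had 2.41, 2.84 and 2.88 log2 CPM in animals 28, 6 and 23 and 2.90 to 3.07 in non-recovered ones (log2 fold change -0.27 ± 0.11, adjusted p = 0.0595). The groups did not overlap, and 25.4% of the table had all recovered libraries lower. Without animal 28 the Sema3d difference was -0.12. Within each library, Sema3e exceeded Sema3d by 2.89 ± 0.19 log2 units in recovered (SD, n = 3) and 2.37 ± 0.23 in non-recovered animals (SD, n = 5), a contrast of genes on the same scale that does not depend on the library total. The ranges were 2.765 to 3.10 and 2.17 to 2.771, so they overlapped slightly at their ends. Next to the lesion Sema7a, a membrane-anchored semaphorin that promotes axon growth through integrins, was higher (0.20 ± 0.09, adjusted p = 0.0665; 0.13 without animal 28). Of 20 semaphorins on the list, 3 were listed contralesionally and 2 ipsilesionally. Of 14 semaphorin receptors and co-receptors only the plexin gene Plxnb3 was listed, ipsilesionally (0.47 ± 0.24, adjusted p = 0.0880). It was highest in animal 6, and without that animal the difference was 0.16.

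Epha8 encodes an Eph receptor of the A class (chromosome 4, 136929419 to 136956816, minus strand). In contralesional cortex it had 2.16, 2.69 and 2.76 log2 CPM in recovered animals 28, 23 and 6. In non-recovered animals 29, 21, 17, 19 and 20 it had 2.45, 2.96, 3.05, 3.08 and 3.15. Animal 29 lay below 2 of the 3 recovered animals, and the other non-recovered animals lay above all 3. The log2 fold change was -0.40 ± 0.18 (limma adjusted p = 0.0711, exact permutation p = 0.125), and the result rested on single libraries. It was -0.22 without animal 28 (adjusted p = 0.260) and -0.52 without animal 29 (adjusted p = 0.0441). Next to the lesion, recovered animals 6, 23 and 28 had 2.34, 2.56 and 2.69, and non-recovered animals 29, 21, 17, 19 and 20 had 2.60, 2.82, 2.88, 3.00 and 3.26. Animal 29 was again the lowest of its group, and only animal 28 of the recovered group exceeded it. The ipsilesional difference was -0.38 ± 0.15 (limma adjusted p = 0.0613, exact permutation p = 0.0714). Epha8 was the least read member, with 79 to 233 reads contralesionally and 118 to 216 ipsilesionally, and counting alone gives an SD of about 0.11 on the log2 scale.

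No ephrin of the 8 on the list was in either table. Of 14 Eph receptors the only other one listed was Ephb6, an Eph receptor whose kinase domain is inactive. It was higher contralesionally, at 7.49 ± 0.10 log2 CPM in recovered (SD, n = 3) and 7.31 ± 0.11 in non-recovered animals (SD, n = 5; 0.18 ± 0.08, adjusted p = 0.0737). Markers of meningeal fibroblasts were lower alongside Epha8. Of 12 such markers 3 were listed contralesionally (Mgp, Islr and Fn1), all lower, with a summed level of 66.0 to 90.7 CPM in recovered and 88.1 to 104 CPM in non-recovered libraries. All 3 were lowest in animal 28, which was also lowest in Epha8. In animal 29, the other animal low in Epha8, Islr was low as well (3.43 log2 CPM), whereas Mgp (3.85) and Fn1 (6.06) were among the higher libraries. Ipsilesionally 4 of 12 were listed, all lower, and summed to 353 to 643 CPM in recovered and 419 to 875 CPM in non-recovered libraries. Most of these sums was Fn1 contralesionally (means of 57.2 and 66.2 CPM) and Ptgds ipsilesionally (491 and 740 CPM). Both overlapped between the groups (limma adjusted p = 0.0893 and 0.0879). Of these markers only Mgp passed (limma adjusted p = 0.0469), as did 7.91% of contralesional genes. Over the whole tables, 64.7% of contralesional and 50.2% of ipsilesional genes were lower. The part of meningeal fibroblasts in the Epha8 difference was not tested.

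Sox11 (chromosome 12, 27334264 to 27342574, minus strand) had 3.34, 3.41 and 3.45 log2 CPM in recovered animals 23, 28 and 6. Non-recovered animals 20, 19, 29, 17 and 21 had 3.53, 3.58, 3.75, 3.78 and 3.997. Every recovered library was below every non-recovered one, and the recovered animals lay close together (SD 0.06, n = 3) while the others spread more widely (SD 0.19, n = 5). The log2 fold change was -0.33 ± 0.11, a level 0.80-fold that of non-recovered animals (limma adjusted p = 0.0564, exact permutation p = 0.0357). Reads numbered 190 to 382 per library, with a counting SD of 0.08. Dcx, which encodes the microtubule protein doublecortin of migrating young neurons, was the other one of 10 immature neuron markers in the table. It was 4.11, 4.33 and 4.77 in recovered animals 23, 28 and 6 and 4.55 to 4.99 in non-recovered ones (-0.35 ± 0.15, adjusted p = 0.0660). Its difference was -0.53 without animal 6 (adjusted p = 0.0423) and -0.20 without animal 23. Of 12 striatal projection neuron markers 9 were listed contralesionally, all lower, while 64.7% of the whole table was lower. They summed to 164 to 202 CPM in recovered and 208 to 263 CPM in non-recovered libraries. Most of this was Rasd2 (means of 94.9 and 107 CPM) and Pde10a (52.6 and 74.9 CPM). Taken singly, only Gpr6 and Pde10a did not overlap between the groups, and 25.4% of the table had all recovered libraries lower. The part of these striatal markers in the Sox11 difference was not tested. The beta-globin genes of red blood cells, written Hbb.bs and Hbb.bt in the table, were higher in the same table, at a summed 6.27 to 12.4 CPM in recovered and 3.01 to 6.85 CPM in non-recovered libraries.

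Igf1 (chromosome 10, 87858265 to 87937042, plus strand) had 3.08, 3.23 and 3.50 log2 CPM in recovered animals 28, 23 and 6. Non-recovered animals 17, 20, 21, 29 and 19 had 3.43, 3.44, 3.52, 3.55 and 3.61. The non-recovered animals lay within a narrow band (SD 0.08, n = 5), animal 6 lay inside it, and animals 28 and 23 lay below. The log2 fold change was -0.24 ± 0.10 (limma adjusted p = 0.0618, exact permutation p = 0.0536). It was -0.14 without animal 28 and -0.35 without animal 6 (adjusted p = 0.199 and 0.0423). Igf1r, unlike Igf1, was lower in every recovered library than in every non-recovered one, as was 25.4% of the table. It had 6.60, 6.83 and 6.88 in animals 23, 6 and 28 and 6.88 to 6.97 in the others. Its lowest non-recovered and highest recovered values nearly touched, and the difference was -0.15 ± 0.08 (adjusted p = 0.0897; -0.06 without animal 23). Ide, which encodes a protease that degrades insulin and can cleave insulin-like growth factors, was higher in both tables (0.32 ± 0.11 contralesional, 0.42 ± 0.13 ipsilesional; adjusted p = 0.0576 and 0.0600). Without animal 29, the Ide differences passed the threshold (adjusted p = 0.0221 and 0.0242). Leaving out any other single library kept them above it, with limma adjusted p of up to 0.114 contralesional and 0.115 ipsilesional. No binding protein of the Igfbp family was listed in either table.

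Compared per kilobase of exon, Sema3e was the most abundant contralesional member, with a mean over the 8 libraries of 4.74 CPM per kb (range 3.63 to 5.53). Sema5b followed at 1.71 (1.35 to 2.15), then Epha8 at 1.48 (0.93 to 1.86), Sox11 at 1.47 (1.21 to 1.91) and Igf1 at 1.08 (0.85 to 1.22). Apart from Sema3e, neighbours in this order overlapped in their ranges. In recovered animals Sema5b stood at 2.04 ± 0.10 CPM per kb (SD, n = 3) and Sox11 at 1.26 ± 0.05 (SD, n = 3), whereas in non-recovered animals they stood at 1.50 ± 0.13 and 1.59 ± 0.21 (SD, n = 5).

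The lists of guidance and growth genes drawn up around the members held 195 genes, of which 14 stood in the contralesional and 8 in the ipsilesional table. Contralesionally 7 were higher and 7 lower, while 64.7% of the whole table was lower. The median log2 fold change was 0.0015, and -0.19 over the whole table. By limma's adjusted p, 2 rose and none fell, and at an unadjusted p under 0.05 there were 3 higher and 5 lower, against 7.91% and 73.4% of the whole table called in either direction. The 2 were Sema5b and Micall2, which encodes an actin-linked protein of the MICAL family (0.42 ± 0.09, adjusted p = 0.0469). Micall2 had 25 to 42 reads per library, and its adjusted p exceeded 0.05 with limma-voom (0.0520) and without animal 17 (0.0737), 19 (0.0554), 20 (0.0740), 21 (0.0552) or 28 (0.0604). Among the rest, the adhesion molecule gene Flrt2, whose protein can act as a ligand of Unc5 receptors, was lower (-0.30 ± 0.11, adjusted p = 0.0590). Without animal 23 it was -0.18 and without animal 6 -0.45 (adjusted p = 0.0341). The growth factor gene Vegfa (0.27 ± 0.14; 0.12 without animal 28, 0.41 without animal 6) and the cell adhesion gene Chl1 (0.15 ± 0.08; 0.07 without animal 6) were higher. Ipsilesionally 5 were higher and 3 lower, with none past limma's adjusted p, and 3 higher and 2 lower at an unadjusted p under 0.05. Over all ipsilesional genes, 1.14% and 74.5% were called at these thresholds in either direction, and 50.2% were lower. The netrin receptor gene Unc5b (0.33 ± 0.15) was highest in animal 6 and differed by 0.15 without it. Flrt3 (-0.21 ± 0.09) and the small heat shock gene Hspb1 (-0.58 ± 0.22), which is induced in regenerating neurons, were lower.

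**Figure D2:**
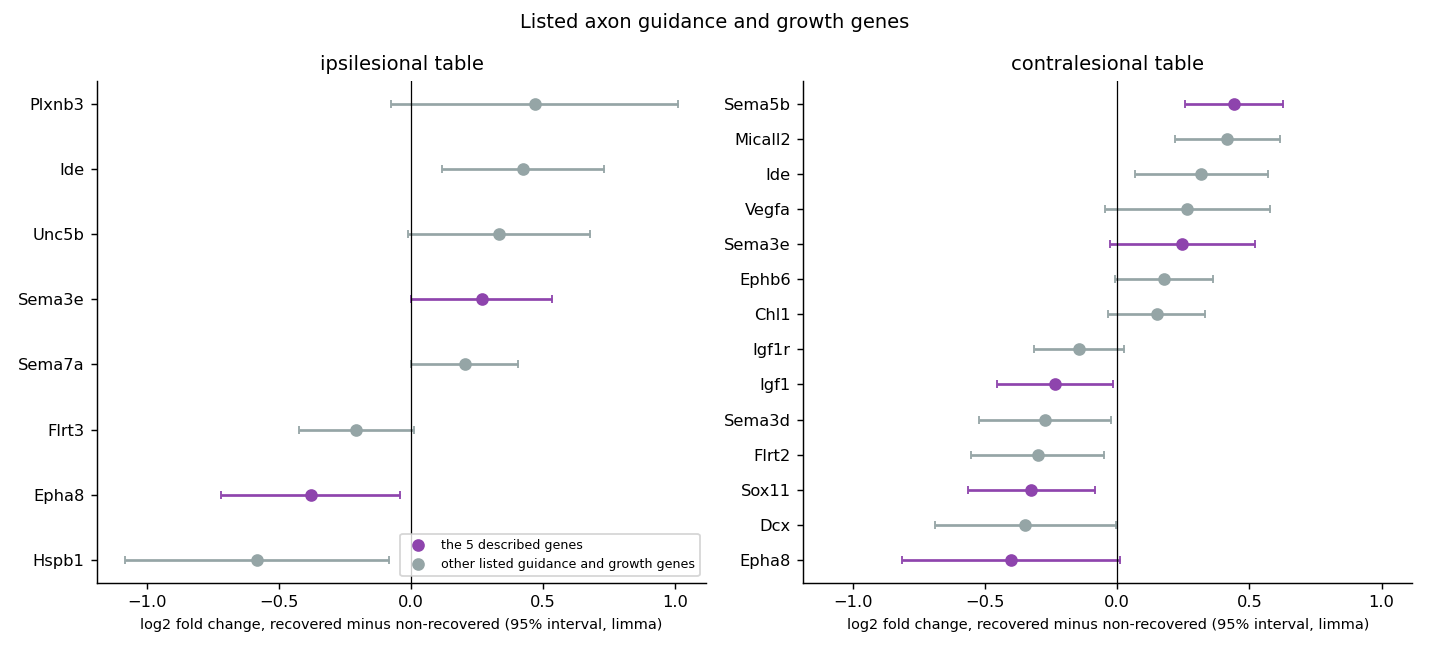
Log2 fold changes (points) with 95% intervals from limma (bars) are plotted for the 8 ipsilesional and 14 contralesional genes of the guidance and growth lists, with the 5 members in purple and the other genes in grey. The interval of Sema5b (0.25 to 0.63) lies above 0, that of Sox11 (-0.57 to -0.08) below 0, and those of Sema3e and Epha8 in contralesional cortex include 0.

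Exonic length moved with the contralesional difference. Over the 415 contralesional genes with an annotated length, higher genes had a median of 3055 nt of exon and lower ones 6669.5 nt. Among the members, the lower genes Igf1 (9904 nt) and Sox11 (8311 nt) were long and Epha8 (4713 nt) was shorter, while the higher genes Sema3e (9285 nt) and Sema5b (7080 nt) were longer than most higher genes. Per doubling of length, the deviation of log2 CPM from each gene's mean had a slope of -0.11 in animal 23, -0.045 in animal 28 and -0.016 in animal 6. The non-recovered libraries had slopes of 0.024 to 0.044, all opposite in sign to the recovered ones. Deviations from a gene's mean cancel over the libraries, and so do these slopes. A steep slope in animal 23 thus moves the others the opposite way, and their signs are not independent of it. With this trend removed from each library, Sema5b stood at 0.59 ± 0.08 (adjusted p = 0.0207) and Sema3e at 0.43 ± 0.13 (adjusted p = 0.0366). Sox11 then stood at -0.15 ± 0.10 (adjusted p = 0.239), Igf1 at -0.04 ± 0.09 (adjusted p = 0.779) and Epha8 at -0.30 ± 0.18 (adjusted p = 0.209). Of the related genes, Sema3d moved to -0.10, Dcx to -0.12, Flrt2 to -0.14, Chl1 to 0.37 (adjusted p = 0.0207), and Igf1r turned to 0.12. Because the trend was estimated from the selected genes themselves, it also takes out part of any group difference that happens to follow length. Ipsilesional higher and lower genes had similar median lengths (5343 and 5125.5 nt), and there Sema3e stood at 0.27 and Epha8 at -0.35 once the trend was removed.

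**Figure D3:**
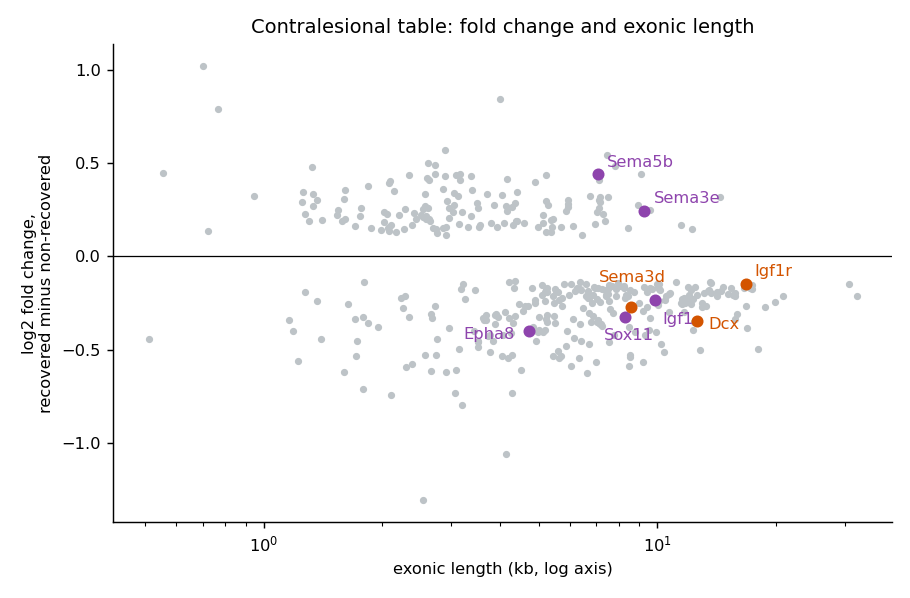
Each grey point is a contralesional gene, with its exonic length in kb on a log axis and its log2 fold change on the vertical axis; members are purple and 3 related genes orange. The empty band around 0 reflects that the table holds no absolute fold change under 0.12. Sema5b and Sema3e lie among the longer of the higher genes, and Igf1 and Sox11 lie in the dense band of long, lower genes.

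Sema3e and Epha8 were compared between hemispheres as the contralesional fold change minus the ipsilesional one. This asks whether the difference between recovered and non-recovered animals was larger on one side. The value was -0.02 ± 0.18 (95% interval -0.42 to 0.37) for Sema3e and -0.02 ± 0.26 (-0.57 to 0.52) for Epha8, with limma adjusted p = 0.931 for each over the 19 genes in both tables, of which 5.26% passed. The intervals are wide enough to hold differences as large as the fold changes themselves. They come from a fit that took all libraries as independent, although each animal gave 1 to each hemisphere. With a replicate block by animal number, the SE was 0.15 for Sema3e and 0.20 for Epha8. Both genes stand here because they were selected in each table on these libraries, so a group difference on each side is not independent evidence. By animal, all 3 recovered animals lay above the non-recovered mean in Sema3e and below it in Epha8 in both hemispheres. Animal 29 lay with the recovered animals in Epha8 on both sides, at -0.31 ipsilesional and -0.49 contralesional relative to its group's mean. For Sema3e, animal 19 was high on the contralesional side (0.32) and animal 17 on the ipsilesional side (0.23).

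**Figure D4:**
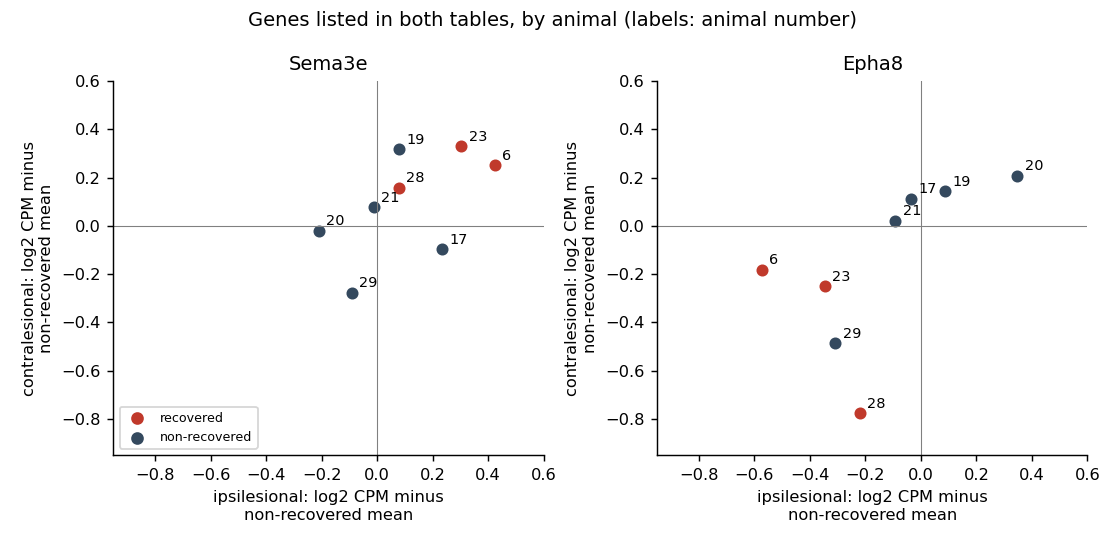
For Sema3e and Epha8, each point is 1 animal, placed by its log2 CPM minus the non-recovered mean in ipsilesional (horizontal) and contralesional cortex (vertical), red for recovered and dark for non-recovered animals. Recovered animals lie in the upper right for Sema3e and in the lower left for Epha8, where the non-recovered animal 29 also lies.

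As deviations from the group means over the 8 libraries, the 10 pairs of contralesional members had Pearson correlations from -0.45 (Sema5b with Epha8) to 0.65 (Sema3e with Epha8), and ipsilesionally Sema3e and Epha8 had -0.45. These and the following correlations are descriptions over 8 libraries that share depth and scaling. The following ones are the highest of many and can be large by selection alone. For each member the 3 most similar genes of the table were listed. Those of contralesional Sema5b were Txnrd1 (r = 0.92), which encodes thioredoxin reductase, the tubulin gene Tubb2a (0.87) and the glycolytic gene Ldha (0.86). Epha8 was most like Kctd11 (0.95), Inmt (0.94) and the fibroblast gene Islr (0.90). Sox11 was most like Fam57a (0.95), the transcription factor gene Zbtb20 (0.95) and Zfp282 (0.79). Igf1 was most like 3 genes with the opposite group difference, namely the adhesion genes Chl1 (0.89) and Tenm2 (0.86) and the transporter gene Slc44a5 (0.86). Sema3e was most like Cenpl (0.90), Gpi1 (0.83) and BC028528 (0.83) contralesionally. Ipsilesionally it was most like Krt73 (0.95), the estrogen receptor gene Esr1 (0.88) and Syt17 (0.82), and Epha8 like Cited4 (0.91), Smad3 (0.83) and Glrx (0.81). An opposite group difference was not particular to the genes most like Igf1. Krt73, Esr1, Syt17, Cenpl and BC028528 were lower while Sema3e was higher. Txnrd1 was lower while Sema5b was higher, and Glrx was higher while ipsilesional Epha8 was lower.

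**Figure D5:**
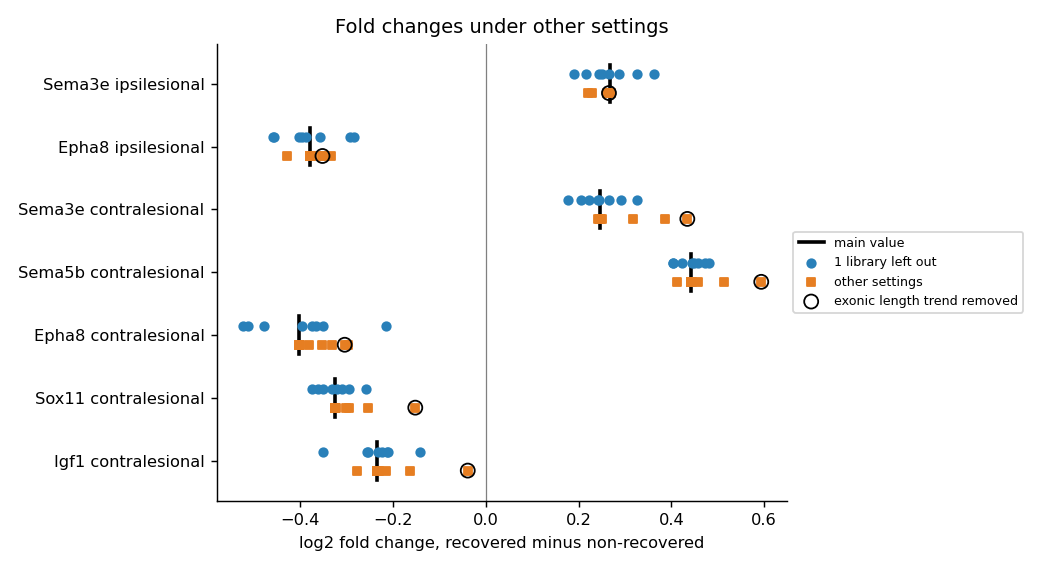
For each member and hemisphere, the black bar is the reported log2 fold change, blue points leave out 1 library each, and orange squares are other settings, with the removal of the exonic length trend circled. No point crosses 0, and some orange squares repeat the reported value by construction. Contralesional Igf1 comes nearest to 0 (-0.04) with the length trend removed, and contralesional Epha8 reaches -0.22 without animal 28.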

How the data were processed

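Libraries were made from poly(A) RNA with a stranded kit, per the labels' protocols. STAR 2.5.1b, Trimmomatic 0.38, edgeR, bcl2fastq and build mm10 are named, without roles, in the submitters' processing notes. The read counter, annotation and rule of gene selection were not given in the sources used here. The authors deposited log2 CPM values, 1 table per hemisphere. All of these values (100%) were whole reads within 0.01 after a prior count of 2 was taken off, which gave reads and library totals. Such totals may include a normalization factor.

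The deposited log2 CPM of recovered and non-recovered libraries were compared, without a filter and over all genes of a table, by limma (version 3.58.1; R version 4.3.3). Exact permutation tests used all 56 assignments (2-sided). Alternatives were other log offsets, voom, a filter at 2 log2 CPM, a variance trend, median and quantile scaling, removal of the length trend and leaving out each library. The fit was checked on simulated data, with the same spread set for every gene and no selection by group difference. That check could not test the adjusted p-values of genes selected on these libraries. The labels name separate animals, so the spread is between animals. Libraries of the same animal number deviated together across the 19 shared genes (mean r = 0.53, lowest 0.12, against -0.16 for other pairs of one group). Deviations from group means cancel within a group, so a positive same-animal mean pulls the other pairs negative. Their value is thus no independent baseline. Pairing by description code gave 0.47, lowest -0.10. GENCODE M21 (GRCm38, the same assembly as mm10) gave exonic lengths and 1-based coordinates. The named genes were the members, the genes of the guidance, growth and cell type lists, and the 3 genes most correlated with each member. Members and lists were chosen with earlier results of these data known.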

Additional observations from a re-analysis of the deposited data

Results flagged for a closer look

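In contralesional cortex, the Epha8 level of the non-recovered animal 29 (2.4537 log2 CPM) lay far below the other 4 non-recovered animals (2.96 to 3.15). It was the only library that stood out in this way among the 7 groups of non-recovered libraries tested for the members, and chance marks about 1 such group in 20. Ipsilesionally the same animal was also the lowest of its group in Epha8 (2.60).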

How the results depend on the processing

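All 126 alternative values of the 7 member results kept their direction, and 114 stayed on the same side of the adjusted p of 0.05. Some of this was fixed in advance. The variance trend, the filter, the adjustment over all protein-coding genes and the exact permutation test reuse the reported fold change. Adjusting over more genes can only raise an adjusted p, so results already uncalled could not change side there. Sema5b lost its call with voom (0.44, adjusted p = 0.0520), with a variance trend (0.44, 0.0501) and when adjusted over all 21951 protein-coding genes (0.44, adjusted p = 1, an alternative chosen after seeing the data); the cause was not tested beyond the larger number of genes in the last. Calls were gained by ipsilesional Sema3e (0.27, adjusted p = 0.0498) and Epha8 (-0.38, 0.0490) with a variance trend, by contralesional Sema3e with the length trend removed (0.43), and by Sox11 in the unadjusted exact permutation test (-0.33, exact p = 0.0357); the cause was not tested. Igf1r reversed to 0.12 with the length trend removed.

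Leaving out 1 library at a time gave ranges of 0.19 to 0.36 for ipsilesional Sema3e, -0.46 to -0.28 for ipsilesional Epha8, 0.18 to 0.33 for contralesional Sema3e, 0.40 to 0.48 for Sema5b, -0.52 to -0.22 for contralesional Epha8, -0.37 to -0.26 for Sox11 and -0.35 to -0.14 for Igf1. The hemisphere differences, near 0, changed sign, with ranges of -0.10 to 0.054 for Sema3e and -0.23 to 0.24 for Epha8. With the replicate block by animal number they were -0.021 for Sema3e and -0.022 for Epha8 (adjusted p = 0.911 for each), and the block changed no call. Depth limits Epha8 most, with as few as 79 reads in a library.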
